A study of Mus musculus with 12 samples.

Results

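The 42 genes described here encode the core autophagy machinery of the mouse and its regulators, and they were taken by name from the count table, in which all 42 had a row among 53801 genes and all 42 had enough counts to be among the 35674 genes tested. They were measured by bulk RNA sequencing of P2RY12+ microglia, isolated with magnetic beads 72 h after occlusion of the middle cerebral artery (MCAO), from the ischemic (ipsilateral, IL) or the non-lesion (contralateral, CL) hemisphere. The 4 groups of 3 libraries were cKO IL, WT IL, cKO CL and WT CL. The cKO mice were Cx3cr1-CreER+/- with both alleles of the targeted gene floxed, and the WT mice were Cx3cr1-CreER+/- with both alleles wild type, so all mice carried the Cre transgene, all received tamoxifen at least 30 days before MCAO, and all had a stroke. They were adult mice of both sexes according to the study's methods. The Cx3cr1 promoter that drives the Cre is active in microglia and in other myeloid cells, and no group comes from mice without stroke. In bulk samples, fewer cells of a type and less RNA per cell cannot be told apart.

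Autophagy delivers cytoplasm, organelles and engulfed cargo to the lysosome. The ULK1 kinase complex starts it, the class III PI3-kinase complex around Beclin 1 makes the lipid signal on the young membrane, ATG9 vesicles and ATG2 supply lipid, and a pair of ubiquitin-like conjugation systems (ATG12 on ATG5, and the ATG8 proteins on phosphatidylethanolamine) extends and closes the autophagosome. The mTORC1 kinase holds the ULK1 complex and the transcription factors TFEB and TFE3 in check when nutrients are plentiful. In microglia part of the same conjugation machinery also acts on single-membrane phagosomes, in LC3-associated phagocytosis. Most of this regulation runs through phosphorylation and lipidation of proteins, which RNA counts do not measure.

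Totals were 43961276 to 47256174 counts in cKO IL, 18425180 to 25166928 in WT IL, 9743603 to 20349883 in cKO CL and 2091512 to 12647526 in WT CL, so depth differs with the group. Levels are given as CPM, the usual counts scaled to library size, here with TMM factors. The 3 numbers that each genotype has in the column names stand in none of the labels and are written as letters, A to C in cKO and D to F in WT, and the same letter in IL and CL is the same column number. The 16 microglial markers, P2ry12, Tmem119 and Cx3cr1 among them, were above 1 CPM on average in all 4 groups, at a summed level of 6700 to 13500 CPM in cKO IL, 10300 to 13000 in WT IL, 6050 to 11200 in cKO CL and 8420 to 11600 in WT CL. The 10 markers of infiltrating monocytes summed to 7300 to 18300 CPM in cKO IL, 594 to 7820 in WT IL, 271 to 662 in cKO CL and 169 to 6090 in WT CL, where Ms4a4c was at 0. The highest WT CL sum (6090 CPM) was in library D, and the lowest WT IL sum (594 CPM) was also in library D, so the libraries labelled WT IL and WT CL with the letter D stand apart from their groups, each with a sum in the range of the other hemisphere. Whether the hemisphere labels of these 2 libraries are right is in doubt and could not be settled from the files. Every WT value of IL over CL, and every difference between the genotypes that uses it, rests on them. So does every value of cKO over WT, within IL or within CL. WT CL library F had the fewest counts of all.

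Per kilobase of exon, Sqstm1 had the highest mean level of the 42 genes over the 12 libraries, at 110 CPM per kb, followed by Gabarap at 63.6, Atg3 and Vmp1 at 26.6 each and Atg2a at 23.5. The lowest were Atg9b at 1.66, Atg12 at 2.07 and Atg10 at 3.20 CPM per kb. Within the ATG8 family the order was Gabarap, Map1lc3a (17.8), Gabarapl1 (12.7), Map1lc3b (10.2) and Gabarapl2 (9.65 CPM per kb). In cKO IL alone the order of Map1lc3a and Gabarapl1 was the other way round, at 17.0 and 18.4 CPM per kb. The length used joins all annotated exons of a gene. It is 7517 bases for Map1lc3b, whose longest transcript has 4138, and 1181 for Map1lc3a, whose longest transcript has 1112. The order of the genes in the family therefore depends on the length used.

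The promoters of the genes that the results turn on are shown because TFEB, TFE3 and MITF, which are members themselves, bind the palindrome CACGTG, the core of the longer CLEAR element whose central letters are TCACGTGA. Both were searched as these letters, each palindrome reading the same on both strands, and every TCACGTGA also counts as a CACGTG. RefSeq windows (GRCm38.p6) of 250 bases before to 50 bases after an annotated start were matched by symbol to 36 of the 42 members. CACGTG was in 5 of these 36 genes (13.9%), against 2187 of 27025 genes (8.09%), and TCACGTGA in 1 of 36 (2.78%), against 304 of 27025 (1.12%). Gabarap and Atg3 are shown because they passed the test in cKO microglia, and Uvrag, Atg5 and Atg7 because DESeq2 called them, with Gabarap, in WT microglia. Capitals mark the motifs, and each run is read 5′ to 3′ on the gene's strand.
Gabarap (chr11:69991120-69991419, plus strand): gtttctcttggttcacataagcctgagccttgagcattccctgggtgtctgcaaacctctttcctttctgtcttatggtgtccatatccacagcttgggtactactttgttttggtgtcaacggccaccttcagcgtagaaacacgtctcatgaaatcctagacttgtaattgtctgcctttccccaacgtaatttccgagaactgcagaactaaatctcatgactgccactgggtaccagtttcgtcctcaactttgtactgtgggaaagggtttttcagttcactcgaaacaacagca
Atg3 (chr16:45158579-45158878, plus strand): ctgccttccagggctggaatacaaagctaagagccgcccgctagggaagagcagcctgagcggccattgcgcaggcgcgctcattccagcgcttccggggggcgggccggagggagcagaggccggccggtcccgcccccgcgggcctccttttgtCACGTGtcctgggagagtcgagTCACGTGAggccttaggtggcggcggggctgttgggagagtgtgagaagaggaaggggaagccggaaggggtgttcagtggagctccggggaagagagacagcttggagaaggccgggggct
Uvrag (chr7:99141095-99141394, minus strand): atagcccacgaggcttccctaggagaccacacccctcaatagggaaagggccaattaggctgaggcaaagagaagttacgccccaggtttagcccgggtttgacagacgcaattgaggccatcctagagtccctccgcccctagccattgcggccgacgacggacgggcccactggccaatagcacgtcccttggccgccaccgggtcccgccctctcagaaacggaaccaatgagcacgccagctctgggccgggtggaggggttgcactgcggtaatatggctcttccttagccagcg
Atg5 (chr10:44268089-44268388, plus strand): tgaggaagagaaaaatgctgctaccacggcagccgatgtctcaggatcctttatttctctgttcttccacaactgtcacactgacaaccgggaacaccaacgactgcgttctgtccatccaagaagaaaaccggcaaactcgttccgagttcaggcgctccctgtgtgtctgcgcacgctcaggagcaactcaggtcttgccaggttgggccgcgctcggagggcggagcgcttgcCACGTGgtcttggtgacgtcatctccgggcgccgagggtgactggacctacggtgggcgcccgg
Atg7 (chr6:114670846-114671145, plus strand): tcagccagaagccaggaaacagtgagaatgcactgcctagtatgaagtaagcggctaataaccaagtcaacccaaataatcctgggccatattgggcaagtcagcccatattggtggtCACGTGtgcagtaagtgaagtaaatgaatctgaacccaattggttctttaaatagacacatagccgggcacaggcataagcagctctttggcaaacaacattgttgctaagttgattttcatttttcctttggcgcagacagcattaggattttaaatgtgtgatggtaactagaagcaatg
Counted from the annotated start, the motifs of Atg3 began at -94 and -71, the second of them inside a TCACGTGA that began at -72, that of Atg5 at -14 and that of Atg7 at -132. The windows of Gabarap and Uvrag held none, nor did those of Map1lc3b and Atg4c, which DESeq2 called in cKO and which are not shown. The other hits were in Rubcn at -88 and Atg14 at -1. An annotated start is not always the outer end of a gene. In GENCODE Atg7 begins at 114643097 and Gabarap at 69991143, so their windows do not cover the 250 bases before the gene. The hit windows of Rubcn (32868317-32868616) and Atg14 (47568385-47568684) also lie inside the gene, whose minus-strand start is 32877766 and 47570649. Another Rubcn window, near its outer start, held none. Rb1cc1, the third gene that passed the test, was not matched. A match to these letters is a description of the sequence and shows no binding.

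In cKO microglia 3 of the 42 genes were higher in IL than in CL and none was lower (edgeR's quasi-likelihood test, adjusted p under 0.05 over all genes tested). They were Gabarap, an ATG8 protein, Atg3, the enzyme that conjugates ATG8 proteins to lipid, and Rb1cc1, which encodes FIP200, the scaffold of the ULK1 complex. The 3 genes are 7.14% of the members, whereas 2.94% of all genes tested were higher and 0.513% lower. Among the 10336 genes of at least 10 CPM on average 10.1% were higher, so the members' share is not above that of well-expressed genes. DESeq2 called 7 members higher (16.7%; 5.69% of all genes and 18.5% of those of at least 10 CPM), and 14 had an unadjusted p under 0.05, all higher (33.3%; 10.5% of all genes and 33.9% of those of at least 10 CPM). The 3 IL libraries lay above the 3 CL libraries for 23 members (54.8%) and below for none, against 18.5% above and 35.9% below over all genes, and 51.8% above at 10 CPM or more. These counts are for TMM scaling. With total count scaling 17 members had a positive log2 fold change, against 35 with TMM. Those of Atg2b (-0.42) and Atg4b (-0.58), both counted as above, were then negative. The median log2 fold change of the members was 0.74, against -1.33 for all genes tested and 0.71 for genes of at least 10 CPM. The calls rested on single libraries: without any 1 of the cKO CL libraries none of the 42 genes passed, without any 1 of the cKO IL libraries or WT CL library E only Gabarap did, and without WT CL library D or F 8 and 14 did, all in the fit that shares 1 spread over the groups. The calls over all genes, 1233 in the main fit, moved as well. They were 0, 39 and 34 without cKO CL library A, B and C. Without cKO IL library A, B and C they were 318, 507 and 506, and without WT CL library D, E and F 2938, 814 and 5085. With the column number as a block only Gabarap passed, and Atg3 and Rb1cc1 did not, and whether the same number is the same mouse is not stated.

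**Figure D1:**
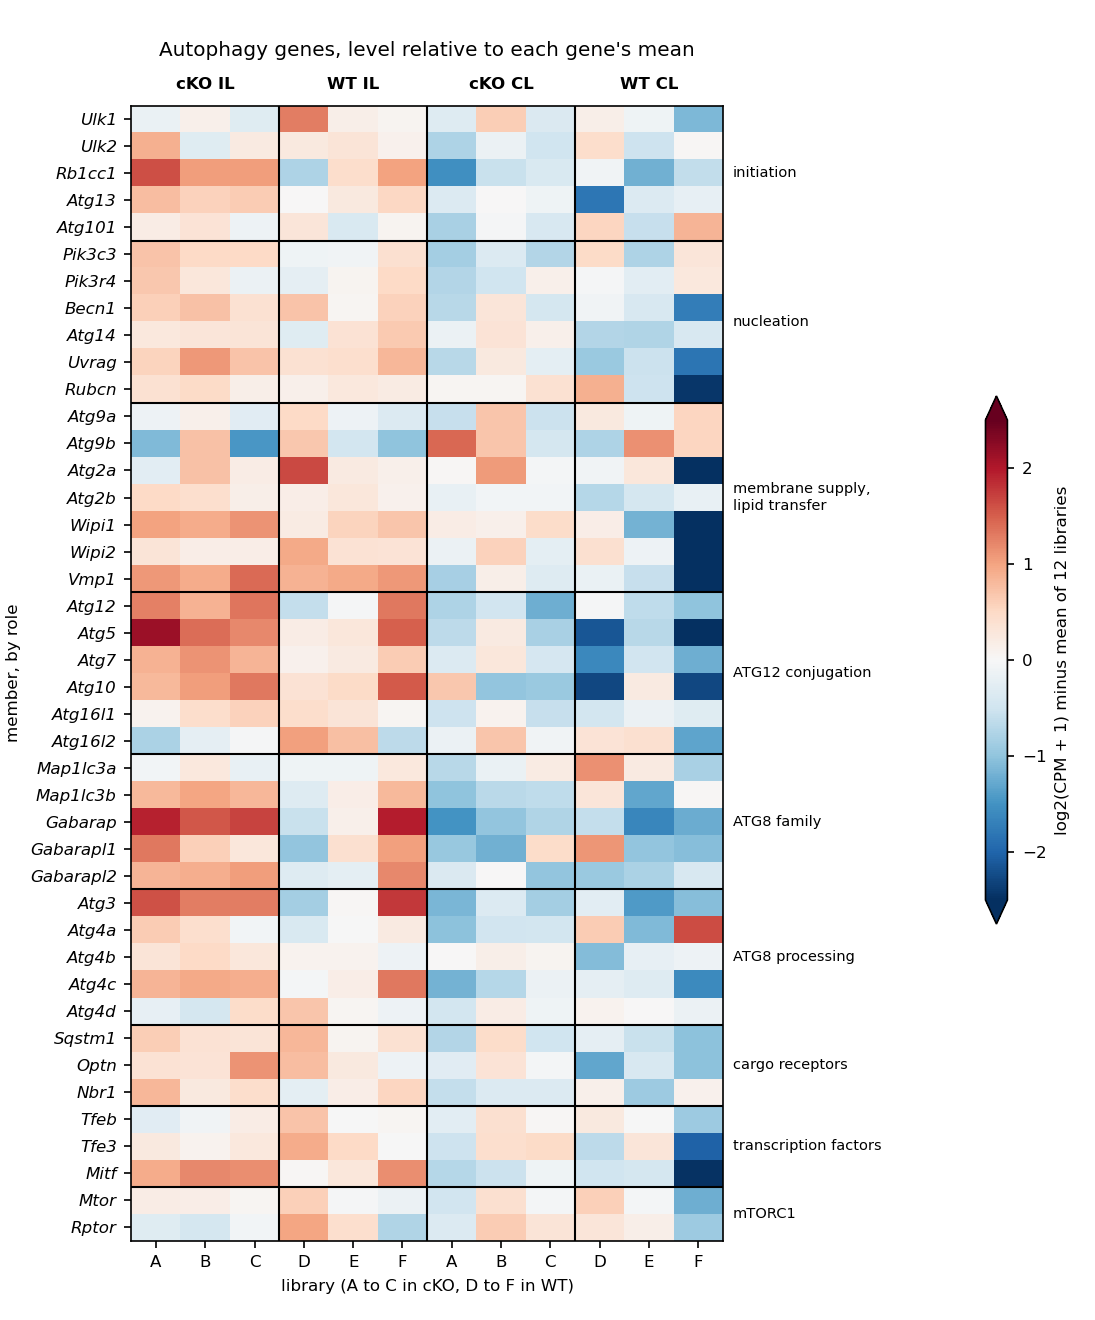
Level of each of the 42 genes in each of the 12 libraries, as log2(CPM + 1) minus the gene's mean over the libraries; columns are libraries by group, rows are genes by role, and red is above the mean. Gabarap, Atg3, Rb1cc1 and Atg5 are red in all 3 cKO IL libraries, WT IL library F is red for the same 4 genes, and WT CL library F is the lowest of all 12 for 18 of the 42 genes.

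The ATG8 family, the ubiquitin-like proteins that coat the autophagosome, had 1 of 5 members called in cKO microglia. Gabarap had 290, 223 and 247 CPM in cKO IL (libraries A, B and C), against 26.3, 37.7 and 44.7 in cKO CL (A, B and C). Every IL library was above every CL library by several fold, and the log2 fold change was 2.81 (SE 0.58, adjusted p = 0.0146). In WT, Gabarap had 50.9, 82.7 and 299 CPM in IL (D, E and F), against 49.4, 23.8 and 31.4 in CL (D, E and F). The WT IL libraries were also all above WT CL, but library D only barely, and the log2 fold change of 2.05 (SE 0.56) had an adjusted p of 0.0808. Without WT IL library D and WT CL library D it was 3.17 and passed the test, and without WT IL library F it was 0.95.

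Map1lc3b, which encodes LC3B, a widely used marker of autophagosomes, had 119, 135 and 121 CPM in cKO IL, against 33.2, 42.3 and 43.5 in cKO CL. The groups did not overlap, but the log2 fold change of 1.66 (SE 0.49) missed the threshold in edgeR (adjusted p = 0.062) and passed it in DESeq2 (adjusted p = 0.0272). In WT the IL values of 54.3, 76.4 and 119 CPM overlapped with 83.7, 26.8 and 69.5 CPM in CL (log2 fold change 0.47, SE 0.48). Gabarapl2, also known as GATE-16, had 35.5, 36.9 and 40.8 CPM in cKO IL, against 14.9, 19.5 and 9.26 in cKO CL, and 15.3, 16.2 and 46.0 in WT IL, against 9.62, 10.8 and 14.4 in WT CL. IL was above CL without overlap in both genotypes, and neither passed the test (log2 fold change 1.37, SE 0.58, adjusted p = 0.164 in cKO and 1.16, SE 0.58, adjusted p = 0.292 in WT). Gabarapl1 had 53.6, 32.1 and 25.6 CPM in cKO IL, against 10.3, 8.56 and 28.9 in cKO CL, with 1 CL library inside the IL range. In WT it had 9.96, 27.9 and 43.7 CPM in IL, against 46.2, 10 and 9.39 in CL, which overlapped widely. Map1lc3a, which encodes the related LC3A, had 18.8, 24.1 and 17.4 CPM in cKO IL, against 11.9, 17.5 and 22.9 in cKO CL, and 18.4, 18.4 and 23.8 in WT IL, against 45.1, 23.4 and 10.9 in WT CL. Its log2 fold changes were 0.21 (SE 0.58) in cKO and -0.39 (SE 0.58) in WT.

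**Figure D2:**
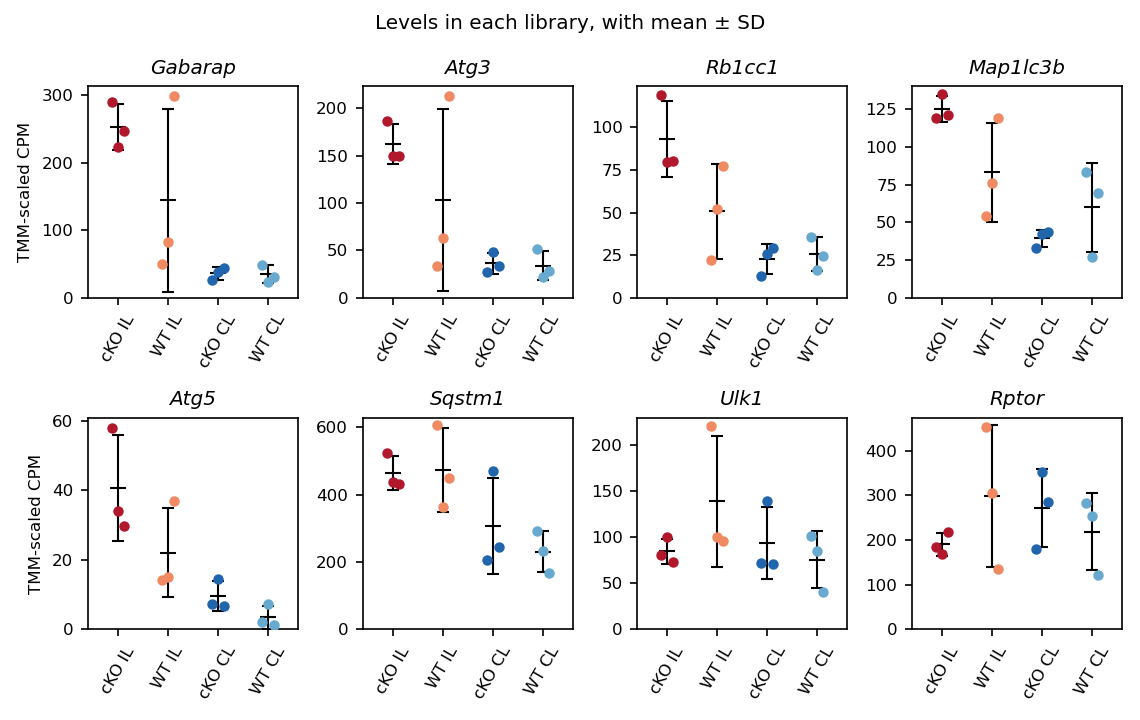
TMM-scaled CPM of 8 of the 42 genes in each library (points) with the mean ± SD of each group of 3 libraries (bars); the groups run cKO IL, WT IL, cKO CL and WT CL. For Gabarap the cKO IL libraries lie at 223 to 290 CPM and the cKO CL libraries at 26.3 to 44.7 CPM, while the WT IL libraries spread over 50.9 to 299 CPM.

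The enzymes that process ATG8 proteins had 1 of 5 members called in cKO microglia. Atg3 had 186, 150 and 150 CPM in cKO IL, against 27.1, 48.4 and 33.6 in cKO CL, again without overlap, and the log2 fold change was 2.16 (SE 0.58, adjusted p = 0.0416). In WT it had 33.6, 62.7 and 213 CPM in IL, against 51.1, 22.5 and 28.8 in CL, where the lowest IL library fell inside the CL range (log2 fold change 1.59, SE 0.57, adjusted p = 0.155). Of the ATG4 proteases, which trim ATG8 precursors and release them from lipid, Atg4c had 44.2, 47.3 and 46.1 CPM in cKO IL, against 9.98, 14.3 and 21.5 in cKO CL. Its log2 fold change of 1.58 (SE 0.57) was called by DESeq2 (adjusted p = 0.0497) and not by edgeR (adjusted p = 0.114). In WT, Atg4c had 23.1, 27.2 and 61.5 CPM in IL, against 20.4, 19.0 and 7.33 in CL, and the log2 fold change was 1.25 (SE 0.57, adjusted p = 0.247). Atg4a had 18.9, 16.3 and 11.2 CPM in cKO IL, against 5.29, 8.23 and 8.34 in cKO CL, and 8.86, 11.8 and 14.1 in WT IL, against 19.1, 4.95 and 38.7 in WT CL. Its log2 fold changes were 1.08 (SE 0.69) in cKO and -0.85 (SE 0.69) in WT, and its WT CL libraries spanned the whole range. Atg4b and Atg4d had log2 fold changes of 0.10 to 0.45 in both genotypes.

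In the ATG12 conjugation system, which joins ATG12 to ATG5 and binds ATG16L1, none of 6 members was called by edgeR. Atg5 had 58.0, 34.0 and 29.8 CPM in cKO IL, against 7.44, 14.5 and 6.63 in cKO CL (log2 fold change 2.09, SE 0.69, adjusted p = 0.0882), and 14.2, 15.2 and 36.8 CPM in WT IL, against 2.01, 7.20 and 1.17 in WT CL (2.65, SE 0.72, adjusted p = 0.0768). IL was above CL without overlap in both genotypes, and DESeq2 called both (adjusted p = 0.0291 in cKO and 0.00779 in WT). Atg7, the E1-like enzyme that both conjugation systems share, had 96.8, 116 and 96.6 CPM in cKO IL, against 41.7, 64.3 and 39.2 in cKO CL, and 56.8, 62.1 and 82.3 in WT IL, against 16.6, 37.9 and 22.0 in WT CL. IL and CL did not overlap in either genotype, with log2 fold changes of 1.09 (SE 0.47, adjusted p = 0.167) in cKO and 1.39 (SE 0.47, adjusted p = 0.138) in WT, and DESeq2 called the WT difference (adjusted p = 0.0484). Atg12 had 32.1, 24.3 and 34.0 CPM in cKO IL, against 7.10, 9.0 and 4.95 in cKO CL (log2 fold change 2.10, SE 0.66, edgeR adjusted p = 0.0722, DESeq2 adjusted p = 0.0161). In WT it had 8.16, 12.5 and 33.5 CPM in IL, against 12.5, 7.95 and 5.87 in CL, which overlapped. Atg10, the E2-like enzyme for ATG12, was low throughout and had 0 counts in WT CL libraries D and F. Atg16l2, a paralog of Atg16l1, had 36.1, 54.0 and 62.0 CPM in cKO IL, against 57.3, 103 and 59.9 in cKO CL (log2 fold change -0.54, SE 0.53), and 131, 108 and 40.2 in WT IL, against 81.2, 84.6 and 24.9 in WT CL (0.55, SE 0.53).

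The ULK1 complex had 1 of 5 members called in cKO microglia. Rb1cc1 had 119, 79.8 and 80.5 CPM in cKO IL, against 12.6, 25.9 and 29.3 in cKO CL, with no overlap, and the log2 fold change was 2.04 (SE 0.55, adjusted p = 0.0419). In WT it had 22.2, 52.4 and 77.6 CPM in IL, against 35.9, 16.2 and 24.6 in CL, and the log2 fold change was 0.99 (SE 0.54, adjusted p = 0.331). Ulk1, the kinase itself, had 80.6, 99.8 and 73.4 CPM in cKO IL, against 72.0, 139 and 70.9 in cKO CL (log2 fold change -0.15, SE 0.49), and 221, 100 and 95.7 in WT IL, against 101, 84.7 and 41.1 in WT CL (0.88, SE 0.49, adjusted p = 0.347). The 2 hemispheres overlapped in both genotypes. Ulk2, Atg13 and Atg101 had log2 fold changes of 0.54 to 0.83 in cKO and -0.37 to 0.93 in WT.

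Of the 6 genes of the class III PI3-kinase complexes none was called by edgeR in either genotype. Uvrag, the Beclin 1 partner of the endosomal complex, had 197, 287 and 221 CPM in cKO IL, against 83.0, 158 and 113 in cKO CL, and 174, 180 and 240 in WT IL, against 69.6, 91.8 and 37.0 in WT CL. IL lay above CL without overlap in both, with log2 fold changes of 0.99 (SE 0.45, adjusted p = 0.188) in cKO and 1.58 (SE 0.46, adjusted p = 0.0945) in WT, and DESeq2 called the WT difference (adjusted p = 0.0161). Becn1, which encodes Beclin 1, had 128, 140 and 110 CPM in cKO IL, against 51.5, 105 and 61.8 in cKO CL, and 139, 87.0 and 127 in WT IL, against 79.7, 63.6 and 24.9 in WT CL. These also did not overlap, with log2 fold changes of 0.79 (SE 0.48) in cKO and 1.06 (SE 0.49) in WT. Pik3c3, the lipid kinase VPS34, had 51.8, 44.4 and 44.1 CPM in cKO IL, against 16.9, 24.2 and 18.3 in cKO CL (log2 fold change 1.24, SE 0.50, adjusted p = 0.151), and 28.6, 29.2 and 41.3 in WT IL, against 43.5, 17.7 and 38.7 in WT CL (-0.01, SE 0.50). Rubcn, a brake on the endosomal complex that is required for LC3-associated phagocytosis, had a log2 fold change of 0.17 in cKO and 0.33 in WT (SE 0.57 each).

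Among the 7 genes of membrane supply and lipid transfer, Vmp1, an endoplasmic reticulum protein with lipid scramblase activity, had the largest log2 fold changes, at 1.45 (SE 0.66) in cKO and 1.90 (SE 0.67) in WT, and neither passed the test (adjusted p = 0.187 and 0.151). It averaged 166 ± 30.2 CPM in cKO IL, against 60.4 ± 20.5 in cKO CL, and 146 ± 11.3 in WT IL, against 38.8 ± 32.9 in WT CL (SD, n = 3 each). Atg9b, a paralog of the scramblase gene Atg9a, had the lowest log2 fold change of all members in cKO, -1.19 (SE 0.97), on a mean of 4.15 ± 4.49 CPM in cKO IL, against 9.47 ± 6.12 in cKO CL (SD, n = 3 each). Wipi1, which reads the PI3-phosphate signal, had 0 counts in WT CL library F.

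The cargo receptor Sqstm1 (p62), which links ubiquitin-tagged cargo to ATG8 proteins and is itself degraded by autophagy, had 524, 439 and 431 CPM in cKO IL, against 207, 470 and 244 in cKO CL, and 607, 362 and 449 in WT IL, against 168 to 292 in WT CL. The groups overlapped in cKO through CL library B and did not overlap in WT. The log2 fold changes were 0.60 (SE 0.44, adjusted p = 0.358) in cKO and 1.03 (SE 0.44, adjusted p = 0.223) in WT. Optn and Nbr1, the other receptors, had values of 0.64 and 0.96 in cKO and 1.24 and 0.34 in WT on the same log2 scale, with none called.

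Tfeb, Tfe3, Mtor and Rptor overlapped between the hemispheres in both genotypes. Tfeb, which switches on lysosome and autophagy genes, had 90.3, 103 and 125 CPM in cKO IL, against 91.3, 145 and 112 in cKO CL, and 180, 109 and 114 in WT IL, against 130, 109 and 58.1 in WT CL. The log2 fold changes were -0.13 (SE 0.45) in cKO and 0.44 (SE 0.45) in WT. Mitf, the other transcription factor of the family, averaged 203 ± 20.6 CPM in cKO IL, against 69.5 ± 15.6 in cKO CL, and 140 ± 62.2 in WT IL, against 50.6 ± 29.9 in WT CL (SD, n = 3 each). Its log2 fold changes of 1.55 (SE 0.52, adjusted p = 0.0911) and 1.47 (SE 0.52, adjusted p = 0.15) did not pass the test. Mtor, the kinase of mTORC1, had 165, 164 and 150 CPM in cKO IL, against 104, 191 and 141 in cKO CL, and 221, 142 and 131 in WT IL, against 221, 140 and 61.6 in WT CL, with log2 fold changes of 0.14 (SE 0.47) and 0.22 (SE 0.47). Rptor, its substrate-binding subunit Raptor, had a log2 fold change of -0.52 (SE 0.48) in cKO and 0.45 (SE 0.48) in WT.

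**Figure D3:**
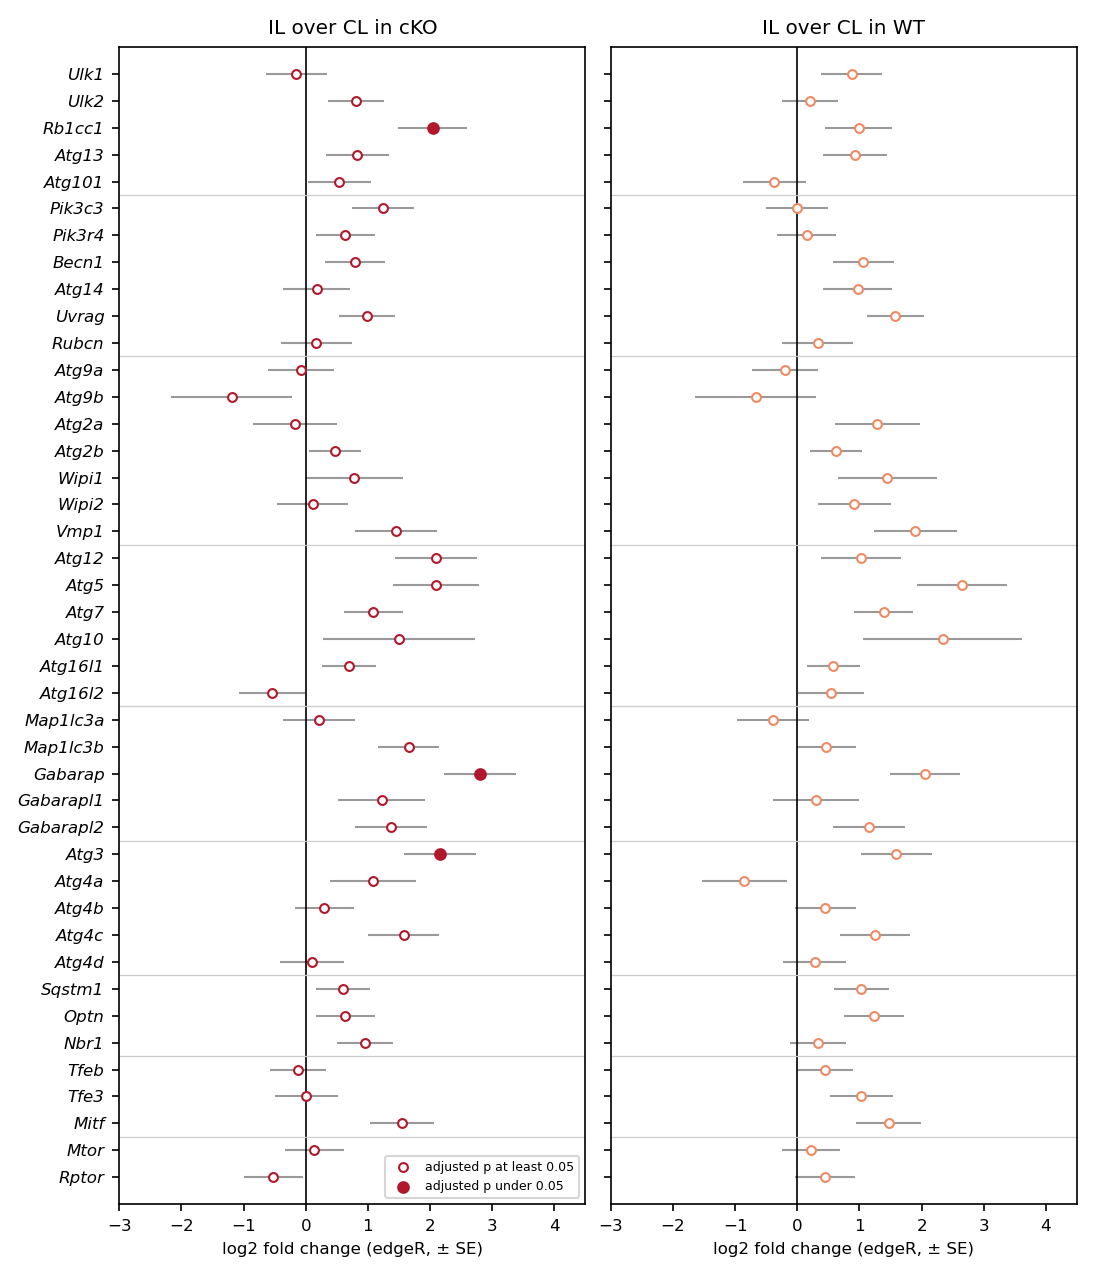
Log2 fold change of IL over CL with its standard error for each of the 42 genes, in cKO (left) and in WT (right) microglia; filled points passed an adjusted p of 0.05 in edgeR. Gabarap, Atg3 and Rb1cc1 are filled in cKO, no point is filled in WT, and 35 points in cKO and 36 in WT lie above 0.

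In WT microglia edgeR called none of the 42 genes between the hemispheres, where 0.538% of all genes tested were higher in IL and 0.0701% lower. DESeq2 called Uvrag, Atg5, Atg7 and Gabarap higher (9.52% of members, against 3.77% of all genes and 9.96% of those of at least 10 CPM). 11 members had an unadjusted p under 0.05, all higher (26.2%, against 9.53% of all genes and 25.2% of those of at least 10 CPM). The 3 IL libraries lay above the 3 CL libraries for 18 members (42.9%) and below for none, against 10.3% above and 6.62% below over all genes, and 24.2% above at 10 CPM or more. At 50 CPM or more, a level that not all members reach, 1512 of 4157 genes lay above. With RLE, total count and abundant-gene TMM scaling the 18 members became 10, 7 and 4. The median log2 fold change was 0.90, against -0.31 for all genes, 0.59 for genes of at least 10 CPM and 0.84 for genes of at least 50 CPM. The result depended on single libraries. Without WT IL library D, Atg5, Gabarap and Atg3 were called, without WT CL library D Gabarap was, without WT CL library E Atg5 and Atg10 were, and without WT IL library D and WT CL library D, Wipi1, Vmp1, Atg5, Gabarap, Atg3 and Mitf were called. Over all genes these fits called 1168, 1381, 607 and 2538 in the same order, against 217 in the main fit.

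The size and even the sign of the members' median depended on the scaling. Scaling by total count gave a median of -0.13 in cKO and 0.27 in WT, and TMM factors from abundant genes alone gave -0.15 and -0.05. Over all genes these scalings shifted the median to -2.26 and -2.30 in cKO and to -0.82 and -1.05 in WT, so both sets moved down together. Gabarap was higher in cKO IL under each of the 3 other scalings and passed the test each time (log2 fold change 1.94 to 2.61), whereas Atg3 (1.30 to 1.97) and Rb1cc1 (1.19 to 1.86) kept their direction and did not pass.

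Shares of the members' own counts do not depend on the scaling. The ATG8 family took 11.4 ± 0.647% of the counts of the 42 genes in cKO IL, against 4.76 ± 1.08% in cKO CL (SD, n = 3 each), and the ranges of 11.0 to 12.2% and 3.66 to 5.81% lay far apart. The enzymes that process ATG8 took 7.04 ± 0.289% in cKO IL, against 4.44 ± 0.41% in cKO CL, also without overlap. The mTORC1 subunits went the other way, with 8.47 ± 0.518% in cKO IL, against 15.5 ± 1.24% in cKO CL, and again the groups did not overlap. In WT the ATG8 family took 7.76 ± 5.10% in IL, against 7.08 ± 2.64% in CL, and the mTORC1 subunits 11.8 ± 4.52% in IL, against 15.6 ± 3.18% in CL, so that the groups overlapped. WT IL library F, at 13.4% for the ATG8 family and 6.71% for mTORC1, was close to the cKO IL libraries, and WT IL library D, at 3.40% and 15.4%, was close to cKO CL. The other roles (initiation, nucleation, membrane supply, ATG12 conjugation, cargo receptors and transcription factors) overlapped between cKO IL and cKO CL. Gabarap, already called, had 8041, 7540 and 8068 counts in cKO IL (A, B and C). Map1lc3b, next in the family, had 3295, 4552 and 3953, so the family's share there rests largely on Gabarap. These shares were not tested, since they are scores over chosen genes.

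**Figure D4:**
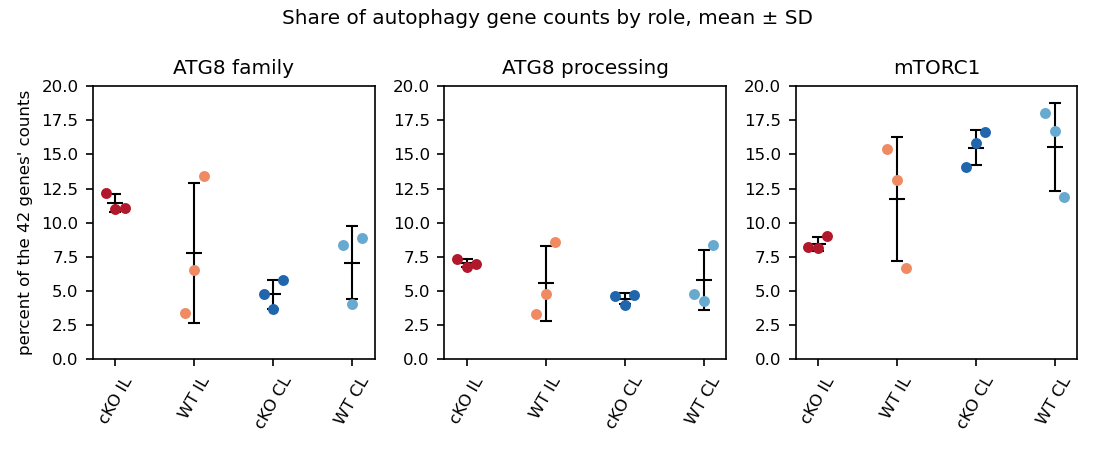
Percent of the counts of the 42 genes that fall in the ATG8 family, in ATG8 processing and in the mTORC1 subunits, per library (points) with the mean ± SD of 3 libraries; groups run cKO IL, WT IL, cKO CL and WT CL. The cKO IL and cKO CL libraries are apart in all 3 panels, with the ATG8 family at 11.0 to 12.2% and 3.66 to 5.81%, and the WT groups overlap. For the other roles, not shown, the cKO IL and cKO CL libraries overlap.

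Between the genotypes, within a hemisphere, no member passed the test. In IL edgeR called none of the members, none at an unadjusted p under 0.05, and none of all genes (0% adjusted, 2.36% unadjusted), and DESeq2 called none (0.0112% of all genes). The 3 members with the lowest p were Rb1cc1 (log2 fold change 0.88, SE 0.53), Atg16l2 (-0.88, SE 0.54) and Gabarap (0.81, SE 0.54), each with an adjusted p of 0.997. Single WT IL libraries moved these values: without library D they were 0.52, -0.55 and 0.42, and without library F 1.32, -1.24 and 1.92. The cKO IL libraries lay above WT IL for 6 members (14.3%) and below for 1, Wipi2, against 4.83% above and 4.39% below over all genes and 11.0% above at 10 CPM or more. The median was 0.18, against -0.24 for all genes and 0.28 for genes of at least 10 CPM. It was -0.15 with total counts. Only voom with quality weights called members, 8 higher and 1 lower, among 4248 genes it called in all.

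In CL edgeR again called none of the members and 0% of all genes, and DESeq2 none (0.0757% of all genes). At an unadjusted p under 0.05 (4.72% of all genes) Atg4a was lower (log2 fold change -1.51, SE 0.70) and Atg5 higher (1.44, SE 0.69), and both had an adjusted p of 1. Their libraries overlapped between cKO CL and WT CL, as the values above show. Atg7, with the third lowest p (0.92, SE 0.47), did not overlap and was 1 of 4 members (9.52%) above WT CL in all cKO CL libraries, against 9.27% above and 1.38% below over all genes and 5.33% above at 10 CPM or more. The median was 0.30, against 0.23 for all genes and 0.10 for genes of at least 10 CPM, and it was -0.06 without WT CL library F and 0.02 without cKO CL library B. WT CL library D, whose hemisphere label is in doubt, is among the libraries compared here.

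The stroke response did not differ detectably between the genotypes for any member. The difference of the log2 fold changes (cKO minus WT) was called by edgeR and DESeq2 for none, with 0 members at an unadjusted p under 0.05, against 0% of all genes in edgeR, 0.0112% in DESeq2 and 3.80% unadjusted. The members with the lowest p were Atg4a (1.93, SE 0.98), Pik3c3 (1.25, SE 0.70) and Map1lc3b (1.18, SE 0.68). For the genes called in cKO the differences were 0.76 (SE 0.77) for Gabarap, 0.57 (SE 0.79) for Atg3 and 1.06 (SE 0.75) for Rb1cc1, so their calls in cKO alone do not show a response particular to cKO. Without WT IL library D and WT CL library D, Atg4a differed by 1.76, Pik3c3 by 0.90 and Map1lc3b by 0.59, and no member was called. The IL over CL comparisons in cKO and in WT share no library, whereas the comparisons of genotype share theirs with both.

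The base composition of the transcripts went with the difference between hemispheres. Across the 42 members Spearman's rho between the GC content of the longest transcript and the log2 fold change was -0.73 in cKO and -0.45 in WT, and across 9909 protein-coding genes of at least 10 CPM it was -0.37 and -0.24. For the length of that transcript rho was -0.43 in cKO and -0.15 in WT across the members. Across the coding genes it was -0.28 and -0.26. These correlations are across genes that share the same libraries and are given as a description. The 21 members with the lower GC content (39.1 to 50.6%) showed median log2 fold changes of 1.08 (cKO) and 1.03 (WT), and the 21 with the higher (50.8 to 63.2%) showed 0.17 and 0.45. Rb1cc1 (39.1% GC) and Atg3 (40.1%) lie at the low end, Atg5 at 44.6%, and Ulk1 (58.0%), Rptor (56.5%) and Tfeb (63.2%) at the high end. Gabarap, at 50.8%, is among the 21 with the higher GC content and had the largest log2 fold change of all members in cKO, as Atg5 had in WT. In cKO over WT in IL rho was -0.60 across members, and in CL it was -0.04. Depth also goes with the groups, and the part of base composition, transcript length and depth in these results was not tested beyond thinning.

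**Figure D5:**
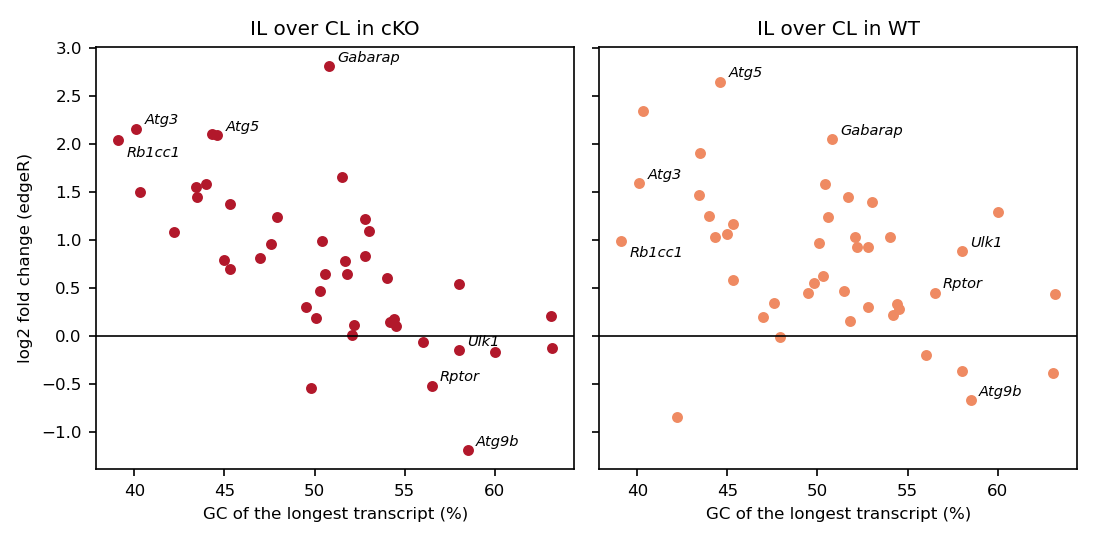
Log2 fold change of IL over CL against the GC content of each gene's longest transcript, for the 42 genes, in cKO (left) and in WT (right) microglia. In cKO the genes run from Rb1cc1 (39.1% GC, 2.04) and Atg3 (40.1% GC, 2.16) to Rptor and Atg9b below 0, with Gabarap above the trend at 50.8% GC and 2.81.

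Markers of infiltrating monocytes moved with the hemisphere as well, as given above, and their part in the differences was not tested. Gabarap and the monocyte sum had the same order over the 3 libraries in WT IL, where both were lowest in library D (50.9 and 594 CPM) and highest in library F (299 and 7820 CPM), and in WT CL, where both were lowest in library E (23.8 and 169 CPM) and highest in library D (49.4 and 6090 CPM). In cKO IL library C had the lowest monocyte sum (7300 CPM) and the middle level of Gabarap (247 CPM). In cKO CL both were lowest in library A (26.3 and 271 CPM). Library C there had the highest Gabarap (44.7 CPM) and library B the highest monocyte sum (662 CPM), so the order differed in both cKO groups. The 8 markers of border-associated macrophages summed to 1020 to 1690 CPM in cKO IL, 258 to 1260 in WT IL, 214 to 341 in cKO CL and 145 to 375 in WT CL, and the 8 neuronal markers to 14.0 to 28.2, 18.9 to 62.1, 77.0 to 131 and 61.4 to 160 CPM in the same groups. Over the 12 libraries the sums ran from 24.5 to 83.5 CPM for neutrophils, 4.15 to 41.4 for T and NK cells, 66.8 to 341 for astrocytes, 100 to 549 for the oligodendrocyte lineage and 134 to 1380 for endothelial and mural cells.

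Other genes of the pathway were taken from 5 lists. The counts that follow stand beside 2.94% of all genes and 10.1% of genes of at least 10 CPM called higher in IL in cKO, and without cKO CL library A none of all genes tested was called, so that each of these calls in cKO was lost. In cKO microglia 4 of 16 genes of fusion and late steps were higher in IL, namely Lamp1 (log2 fold change 3.27, SE 0.71), Lamp2 (2.99, SE 0.59), Snap29 (2.41, SE 0.54) and Rab7 (2.32, SE 0.49), which serve the lysosomal membrane and the fusion of autophagosomes with it. Of the 23 regulators of mTORC1, TSC and Rag tested, 6 were higher, among them the Ragulator genes Lamtor2 (3.51, SE 0.86), Lamtor4 (2.46, SE 0.64) and Lamtor1 (2.29, SE 0.61), the Rag GTPases Rraga (2.79, SE 0.76) and Rragc (2.49, SE 0.64), and Fnip2 (3.14, SE 0.54), a partner of folliculin. These scaffold mTORC1 to the lysosome, and their values stand beside -0.52 for Rptor and 0.14 for Mtor. Of 11 nucleation and elongation partners 3 were higher (Sh3glb1, Wac and Trappc8, 1.78 to 2.02), and of 14 selective receptors and mitophagy genes 2 were higher, the mitophagy receptors Fundc1 (2.96, SE 0.76) and Bnip3l (2.24, SE 0.57). None of 11 AMPK and FOXO genes was called, the lowest p being those of Prkaa1 (1.79, SE 0.54, adjusted p = 0.0648) and Cab39 (1.51, SE 0.46, adjusted p = 0.069). In WT microglia Lamp2 (2.89, SE 0.59), Rab7 (2.09, SE 0.49), Lamtor2 (4.18, SE 0.90) and Fnip2 (2.39, SE 0.52) passed. In WT 0.538% of all genes and 1.76% of genes of at least 10 CPM were called higher in IL. The doubt about the labels of the libraries with the letter D holds for these calls too. By edgeR no gene of the 5 lists was lower in any comparison, and none was called between the genotypes. DESeq2 called Prkaa2, a catalytic subunit of AMPK, lower in WT IL (log2 fold change -2.62, DESeq2 adjusted p = 0.0335), where edgeR gave -2.30 (SE 0.99, adjusted p = 0.224) and the groups overlapped. Between the genotypes Ddit4 (REDD1), a stress-induced inhibitor of mTORC1, had the lowest p, for cKO over WT in CL (log2 fold change 2.40, SE 0.69, edgeR adjusted p = 1). It averaged 62.6 ± 50.2 CPM in cKO CL, against 11.8 ± 3.04 in WT CL (SD, n = 3 each).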

How the data were processed

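P2RY12+ microglia of 12 samples were sequenced from stranded total RNA (SMARTer pico V2 kit). The deposited values are raw counts of reads for each gene. The authors had trimmed adapters, discarded poor reads and those of rRNA and mitochondrial DNA, and aligned the rest to the mm10 genome. Their processing notes name STAR 2.5.3a and Partek Flow 8.0. The annotation's release and the strand setting of the counting are not given in the sources used here, so reads of overlapping or antisense genes cannot be told apart. The columns carry group names that match the labels and numbers that do not, so each column was mapped to its group only, and 0 columns of no sample were left out. Whether libraries come from separate animals is not stated for each column, and p-values measure the spread between these libraries. The study gives 3 independent animals and took microglia from both hemispheres of the brains. IL and CL libraries may therefore share mice, whereas the main fit treats all libraries as independent.

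Members and gene lists were chosen with earlier results of these data known. Genes passing edgeR's filterByExpr (35674) were scaled by TMM (factors 0.618 to 1.64) and tested with edgeR 4.0.16 (quasi-likelihood, two-sided, R 4.3.3) in 1 fit of 12 libraries with a mean per group. The Benjamini-Hochberg adjustment covered all genes tested, and the threshold was 0.05. The thresholds in the study's methods (unadjusted p of 0.05, 2-fold) and its tool, DESeq2, served as alternatives. Standard errors come from the fold change and the F statistic. The script was tested on simulated data. Values in every library are given for members called by edgeR or DESeq2 in any comparison, for the 3 with the lowest p in each, and for Ulk1, Becn1, Atg5, Atg7, the ATG8 family, Sqstm1, Tfeb and Mtor. Vmp1, Mitf, Atg9b and Rptor are given by means or fold changes. The level of the targeted gene is not reported here. Gene lengths, exons and GC content come from GENCODE vM21 (GRCm38). The other alternatives, beside DESeq2 (version 1.42.0), were limma 3.58.1 (voom, weighting libraries by quality), other scalings and filters, thinning to the smallest library, the 6 libraries of a comparison alone, a block, the study's thresholds and leaving out libraries. Figures were drawn with matplotlib 3.10.9.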

Additional observations from a re-analysis of the deposited data

How the results depend on the processing

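Members called by edgeR or DESeq2, and the 3 with the lowest p in each comparison, kept their direction under all alternatives, but the number called did not. For IL over CL in cKO, 3 members were called, against 1 (Gabarap) with RLE, total count or abundant-gene TMM scaling and with thinning to the smallest library, 7 with DESeq2, 18 with voom, 7 with no filter, 5 with at least 10 counts in every library, where 38 members were tested, 23 with the 6 libraries alone and 12 by the study's thresholds. Over all genes, in either direction, the main fit called 1233. RLE, total count and abundant-gene TMM scaling called 853, 1428 and 1061, and thinning 1082. DESeq2 called 6530, voom 15450, no filter 2561, at least 10 counts in every library 2885 and the 6 libraries alone 11159. The number by the study's thresholds over all genes is not given here. Leaving out 1 library gave 0 to 14 members, with 0 without any 1 of the cKO CL libraries, 8 without WT CL library D and 14 without WT CL library F. Over all genes these fits called 0 to 5085, with 0, 39 and 34 without cKO CL library A, B and C. Gabarap was called in 21 of 24 other fits, Atg3 in 12 and Rb1cc1 in 11. For IL over CL in WT, none was called, against 4 with DESeq2, 3 with no filter, 2 with 10 counts in every library, 11 by the study's thresholds and 0 to 3 when 1 library was left out, the 3 being without WT IL library D. Over all genes the main fit called 217, DESeq2 3915, no filter 1557 and 10 counts in every library 1069. Leaving out 1 library gave 5 to 1381 of all genes, with 1168 without WT IL library D. Chosen after seeing the data, leaving out WT IL library D and WT CL library F gave 15 in cKO and 3 in WT, and leaving out WT IL library D and WT CL library D gave 10 and 6. Over all genes the former fit called 6042 in cKO and 2334 in WT, and the latter 3586 and 2538. Between genotypes, voom called 9 members in IL and the study's thresholds 2 in CL, and no other alternative called any.

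Members' medians turned with scaling. In cKO over WT in IL the median was -0.15 with total counts, -0.10 with abundant-gene TMM and -0.03 with 10 counts in every library, in IL over CL in cKO it was -0.13 with total counts and -0.15 with abundant-gene TMM, and in IL over CL in WT it was -0.05 with abundant-gene TMM. Counts of members that did not overlap were 4 with total counts and 4 with abundant-gene TMM instead of 7 in IL between genotypes, 2 with RLE and 2 with abundant-gene TMM instead of 4 in CL, and 10, 7 and 4 with RLE, total counts and abundant-gene TMM instead of 18 between hemispheres in WT. Between hemispheres in cKO, 17 members were positive with total counts. Atg2b and Atg4b, counted as above with TMM, were then negative (-0.42 and -0.58). Depth limits the precision of low members, and WT CL had 2091512 to 12647526 counts.

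The replicate numbers of the labels are not on the columns. A replicate block by the column number, added after seeing the data, called 1 member in cKO and 0 in WT, and 787 and 1 of all genes. Libraries of the same number correlated at 0.209, 0.059 and 0.074 in cKO and at -0.130, 0.147 and -0.058 in WT, so the numbers are not shown to pair the samples, although each cKO library correlated best with its own number.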

Other observations

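WT IL library D and WT IL library F differed in which members were high. Library D was the highest of all 12 libraries for 10 members, namely Ulk1, Atg2a, Wipi2, Atg16l2, Atg4d, Sqstm1, Tfeb, Tfe3, Mtor and Rptor, with 448 CPM of Atg2a and 454 CPM of Rptor. Library F was the highest for 6 members, Atg14, Atg10, Gabarap, Gabarapl2, Atg3 and Atg4c, and had 154 CPM of Atg2a and 136 CPM of Rptor. WT IL library E was the highest for none. WT CL library F, the shallowest, was the lowest of the 12 for 18 members and yet the highest for Atg101 (61.9 CPM) and Atg4a (38.7 CPM). The members with the lower GC content took 30.9% of the members' counts in WT IL library D and 45.5% in WT IL library F, against 33.4 to 42.7% in WT CL and 32.4 to 35.9% in cKO CL, and 43.9 to 45.7% in cKO IL. These libraries were singled out after their values were seen.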
